A study of Mus musculus with 24 samples.

Results

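The last stage of the ML-792 time course compared 3T3-L1 cells at day 7 of adipocyte differentiation with those at day 3, in 3 libraries a day named A, B and C, which makes 6 of the 24 libraries of the study. 3T3-L1 is an established mouse fibroblast line that turns into fat cells after hormonal induction. ML-792, an inhibitor of the SUMO-activating enzyme SAE1/2, was kept in the medium at 0.5 µM, and the control cultures received DMSO. Differentiation medium, with dexamethasone, 3-isobutyl-1-methylxanthine and insulin, was given until day 3, and maintenance medium with insulin alone thereafter, so that both treatments also changed medium between the 2 days. RNA was labelled with 100 µM 4-thiouridine for 45 min before lysis, and each library was read as total reads (QuantSeq, a 3′ end method for polyadenylated transcripts) and as labelled reads, those with a T to C conversion (SLAMseq). The remaining libraries were ML-792 at days −2 and 1 and DMSO at days −2, 1, 3 and 7, with 3 libraries each. All groups come from 1 cell line, and the methods call A, B and C biological replicates without saying how they were kept apart, so the tests measure the spread between these libraries.

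Adipocyte differentiation in this line starts with a round of cell division, the clonal expansion, and ends with cells that have left the cell cycle, make and store triglyceride and secrete hormones such as adiponectin. The nuclear receptor PPARγ and the C/EBP factors drive the late programme, while SREBP factors control lipid and cholesterol synthesis. SUMO is a small protein that is attached to many nuclear proteins, transcription factors among them, and the attachment begins with the enzyme that ML-792 blocks.

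With 1 3′UTR entry for each gene, the 6 libraries held 9752432 to 11959289 total reads and 78312 to 112814 labelled reads, against 9118954 to 18306785 and 78312 to 553883 over the 24 libraries. Log values of replicates correlated with r between 0.970 and 0.980 in total reads and between 0.727 and 0.777 in labelled reads, and no pair of libraries was identical. Normalized reads are counts scaled to the mean effective library size of 12465796, and log2 changes are fitted values of day 7 over day 3, given ± SE. Adipocyte markers were read at both days, though at unlike levels, with Fabp4 high and Slc2a4 far lower at day 3. By contrast, Ptprc, Lyz2, C1qa, Itgam and Tyrobp of the 8 macrophage markers, Cdh5, Tek and Cldn5 of the 7 endothelial markers and Myod1, Myf5 and Ckm of the 7 muscle markers had no read in any of the 6 libraries. The summed level of the macrophage list lay between 8.45 and 9.96 CPM (counts scaled by the effective library size) at day 3 and between 2.65 and 4.11 at day 7, mostly Cd68. Fewer cells that express a gene and less RNA per cell cannot be told apart in these bulk libraries.

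Between day 3 and day 7 in ML-792, 1181 of 13337 genes rose and 866 fell in total reads at an adjusted p under 0.01, which is 8.86% and 6.49% of the genes tested. The counts of list members below are to be read beside these shares, and a count near them marks nothing particular to a list. The rises were the larger changes: 336 genes rose by more than 2 on the log2 scale and 143 fell by more than 2. The libraries of the 2 days did not overlap for 5149 of the 13337 genes and for 2040 of the 2047 called. No overlap therefore adds little to a call. With the replicate letter as a block the counts were 1832 and 1535. They were 338 and 224 without the A libraries, 511 and 300 without the C libraries, and 1362 and 1210 without the B libraries. Without TMM factors 1021 rose and 1106 fell, which turns the majority: 48.0% of the calls were then higher, in place of 57.7%. In DMSO the same days gave 1254 genes higher (9.40%) and 906 lower (6.79%).

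**Figure D1:**
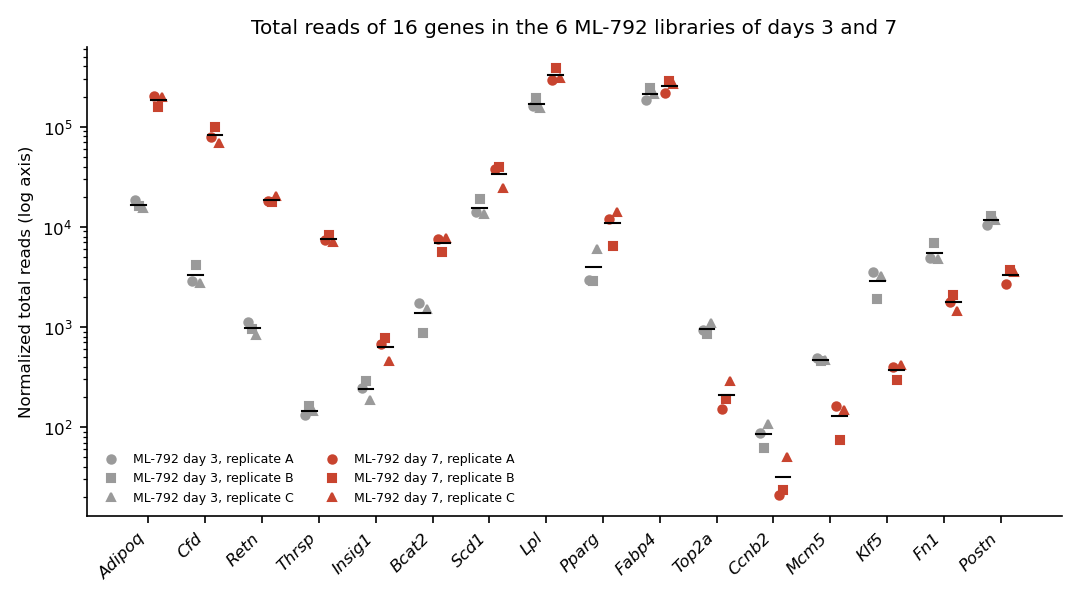
Normalized total reads (log axis) of 16 genes in the 6 ML-792 libraries, day 3 in grey and day 7 in red, with 1 symbol per replicate letter and a line at the mean. The libraries of the 2 days overlapped only for Fabp4 among the genes shown, and the secreted proteins Adipoq, Cfd and Retn showed wide upward steps. Over all genes tested, the days did not overlap for 5149 of 13337.

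Many of the genes that rose encode secreted proteins of the fat cell. Of 22 adipokines and acute phase proteins tested, 13 rose, 3 fell and 6 were not called, and the median log2 change was 1.31, beside 0.00 over all genes tested. Adipoq, which encodes adiponectin, was at 18385, 16049 and 15235 normalized reads at day 3 and 203480, 158310 and 197720 at day 7 (3′UTR at chr16:23157595-23157968, plus strand, mm10). Every day 7 library thus lay far above every day 3 library, and the rise was called (log2 change 3.49 ± 0.24, adjusted p = 4.55e-10). Cfd, the complement protease adipsin, went from 2907, 4163 and 2741 normalized reads at day 3 to 79447, 99834 and 69172 at day 7 (log2 change 4.66 ± 0.31, adjusted p = 3.1e-10). Retn, which encodes the hormone resistin, had 1129.5, 963 and 827 normalized reads at day 3 and 18180, 17842 and 20146 at day 7 (log2 change 4.27 ± 0.33, adjusted p = 3.23e-09). Haptoglobin (Hp), a haemoglobin-binding plasma protein, rose from a mean of 2011 ± 705 to 39384 ± 5055 normalized reads (SD, n = 3), a log2 change of 4.29.

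The 3 members that fell in this list were Saa3, Lcn2 and Retnla. Saa3, an inducible serum amyloid A, dropped from 2059, 1564 and 2803 normalized reads at day 3 to 106, 70.0 and 132 at day 7 (log2 change −4.38 ± 0.34, adjusted p = 2.58e-09). Lcn2, an iron-siderophore carrier of innate immunity, had 6554, 8127 and 6925 normalized reads at day 3 and 2481, 3579.7 and 2311 at day 7 (log2 change −1.37 ± 0.19, adjusted p = 1.15e-05). Orm1 and Orm3, which were both called higher, are near-identical copies whose reads may be split. Without the A, B or C libraries, 8, 13 and 9 members were called higher and 3 lower each time.

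Among the transcription factors that drive adipogenesis fewer calls were made. Of 25 tested, 9 rose, 3 fell and 13 were not called, with a median log2 change of 0.42. The calls were 5 rises and 1 fall without the A libraries and 4 and 1 without the C libraries. Pparg, the nuclear receptor at the head of the programme, had 2962, 2861 and 6022 normalized reads at day 3 and 11893, 6445 and 14062 at day 7. All 3 libraries of day 7 lay above those of day 3, but both groups were widely spread, and the change was not called (log2 change 1.45 ± 0.45, adjusted p = 0.0205). With DESeq2 its adjusted p was 0.00339, without the B libraries 0.000276 and in the 12 ML-792 libraries alone 0.00801, each of which would be a call. Cebpa, its partner factor, had 10261, 5902 and 7274 normalized reads at day 3 and 8536, 4691 and 7245 at day 7, with overlapping groups and a log2 value of −0.20 (adjusted p = 0.681). Rxra, the dimer partner of PPARγ, was not called (adjusted p = 0.925), at a mean of 4182 ± 563 normalized reads at day 3 and 4089 ± 653 at day 7 (SD, n = 3).

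The factors that rose were Cebpd, Klf15, Mlxipl, Nr1h3, Rxrg, Stat5a, Stat5b, Zfp423 and Zfp467. Nr1h3, the oxysterol receptor LXRα, had 697, 621 and 672 normalized reads at day 3 and 2575, 2346 and 2446 at day 7 (log2 change 1.89 ± 0.17, adjusted p = 2.62e-08). Cebpd was not called without the C libraries (adjusted p = 0.018). Klf15, a late adipogenic Krüppel-like factor, rose from a mean of 113 ± 15.2 to 635 ± 4.04 normalized reads, a log2 change of 2.49. The 3 that fell were Klf5, Cebpb and Ppargc1b, the first and second of which act early in differentiation. Klf5 dropped from 3522, 1917 and 3263 normalized reads to 402, 297 and 416 (log2 change −2.96 ± 0.41, adjusted p = 1.15e-05), with no overlap between days. Klf10 fell by a smaller step (log2 change −0.79 ± 0.22, adjusted p = 0.00951), a call that was lost when any 1 of the 3 replicate letters was left out. Klf3 had 2278, 1074 and 1728 normalized reads at day 3 and 1276, 781 and 1185 at day 7 and was not called (adjusted p = 0.351), and Klf13 had a log2 value of −0.41 (adjusted p = 0.246). With the replicate letter as a block both Klf3 (adjusted p = 0.00212) and Klf13 (adjusted p = 0.00129) would be called lower, as would Ywhag be called higher (4.11e-05), a 14-3-3 protein gene with 10634, 6844 and 9294 normalized reads at day 3 and 14969, 9837 and 13522 at day 7.

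Genes of fatty acid synthesis rose. Of 21 genes of de novo lipogenesis and desaturation tested, 12 rose and 1, Elovl6, fell, with a median log2 change of 0.80. Thrsp, a nuclear protein induced with lipogenesis, had 133, 161 and 144 normalized reads at day 3 and 7344, 8308 and 7077 at day 7 and was the largest rise of the list (log2 change 5.70 ± 0.53, adjusted p = 6.88e-08). Pnpla3, a lipid droplet acyltransferase and lipase, had 274, 361 and 246 normalized reads at day 3 and 5229, 5851 and 4939 at day 7 (log2 change 4.18 ± 0.24, adjusted p = 2.39e-11). Acly, which makes cytosolic acetyl-CoA from citrate, rose by a log2 of 1.07 and Fads1, the Δ5 desaturase, by 2.54. Scd1, the main Δ9 desaturase of fat cells, had 13967, 18785 and 13308 normalized reads at day 3 and 37630, 39154 and 24303 at day 7 (log2 change 1.13 ± 0.23, adjusted p = 0.000756). The lowest day 7 library of Scd1 was still above the highest day 3 library. Without the A libraries the adjusted p of Scd1 was 0.111 and that of Acly 0.0372. Elovl6, which elongates palmitate, was lower at day 7, at 274, 420.2 and 319 against 603, 883 and 618 normalized reads (log2 change −1.05 ± 0.27, adjusted p = 0.00611). Without the A libraries 3 of the 12 rises and without the C libraries 8 were called, and Elovl6 was called in neither.

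Genes of fat storage and release were called in smaller shares. Of 15 triglyceride synthesis genes 6 rose (Aqp7, Gpam, Gpd1, Lpin1, Lpin3 and Mogat1) and 1, Gk, fell, with a median log2 change of 0.63. Without the A libraries 0 of the 6 rises were called and without the C libraries 1 was. Gk, glycerol kinase on chromosome X, had 1290.1, 1654 and 1869 normalized reads at day 3 and 313, 533 and 337 at day 7 (log2 change −2.03 ± 0.22, adjusted p = 2.68e-07). Of 20 genes of the droplet coat and lipolysis 7 rose and none fell, and 2, 9 and 3 rose without the A, B or C libraries and 12 with the block. Adrb3, the β3-adrenergic receptor, had 80.8, 99.3 and 69.8 normalized reads at day 3 and 1132, 1185 and 1115 at day 7 (log2 change 3.78 ± 0.31, adjusted p = 7.03e-09). Cidec, which fuses lipid droplets, rose from a mean of 17846 ± 1044 to 74234 ± 1848 normalized reads, and its log2 change was 2.06. The lipases Pnpla2 and Lipe rose by a log2 of 1.36 (adjusted p = 0.000112) and 1.03 (adjusted p = 0.000278), and calls were lost for Pnpla2 and Lipe without A (adjusted p = 0.0265 to 0.0389) and for Pnpla2 and Lipe without C (adjusted p = 0.0103 to 0.014). Plin1, the main droplet coat protein, had 7449, 4328 and 6954 normalized reads at day 3 and 9016, 5414 and 7540.2 at day 7 and was not called (adjusted p = 0.543). Fabp4, the fatty acid carrier of fat cells, was among the most abundant transcripts at both days, with 184830, 240910 and 212220 normalized reads at day 3 and 218880, 287870 and 265840 at day 7. Its groups overlapped (log2 0.28, adjusted p = 0.519).

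Of 18 genes of fatty acid uptake and binding 6 rose, with Acsl3, Cav1, Cav2, Gpihbp1 and Lpl among them, and 1, Got2, fell, with a median log2 change of 0.32. When the A libraries were left out, 2 of these genes rose and 0 fell. Lpl, the secreted lipoprotein lipase, had 159460, 192050 and 154750 normalized reads at day 3 and 293700, 382570 and 305110 at day 7 (log2 change 0.95 ± 0.15, adjusted p = 4.16e-05), with an adjusted p of 0.0161 without the A libraries. Cav1, the coat protein of caveolae, had 2396, 3064 and 3048 normalized reads at day 3 and 20086, 24679 and 25885 at day 7 (log2 change 3.05 ± 0.18, adjusted p = 3.92e-11).

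Cholesterol synthesis and amino acid breakdown rose in most of their members. Of 24 cholesterol genes 15 rose, 1 (Lss) fell and 8 were not called, with a median log2 change of 0.99. Sc5d, a late desaturase of the pathway, had 331, 308 and 260.3 normalized reads at day 3 and 731, 825 and 774 at day 7 (log2 change 1.37 ± 0.16, adjusted p = 1.38e-06). Insig1, a sterol-regulated protein of the endoplasmic reticulum that holds SREBP back, had 248, 289 and 186 normalized reads at day 3 and 672, 769 and 454 at day 7 (log2 change 1.39 ± 0.22, adjusted p = 3.99e-05). Pmvk, phosphomevalonate kinase, rose by a log2 of 1.45, while Lss, lanosterol synthase, had a log2 change of −0.73 (adjusted p = 0.00942). Of 24 genes of branched-chain amino acid catabolism 15 rose and none fell, with a median log2 change of 1.23. Aldh6a1, of valine breakdown, had 975, 1038 and 1255 normalized reads at day 3 and 4649, 5616 and 5905 at day 7 (log2 change 2.31 ± 0.20, adjusted p = 1.3e-08). Mccc1, of leucine breakdown, rose from a mean of 563 ± 28.6 to 1995 ± 154 normalized reads. Bcat2, the mitochondrial aminotransferase at the entry of the pathway, had 1741, 859.9 and 1498 normalized reads at day 3 and 7590.1, 5564 and 7729 at day 7 and a log2 change of 2.35. Without the A, B or C libraries 7, 17 and 10 cholesterol genes and 7, 16 and 13 branched-chain genes were called higher, against 338, 1362 and 511 of all genes.

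Of 42 oxidative phosphorylation genes 4 rose, Cox7a1, Cox8b, Ndufs1 and Sdha, which is 9.52% beside the 8.86% of all genes, and none fell. With the replicate letter as a block 11 rose and 3 fell, and without the A, B or C libraries the rises were 2, 9 and 2 and the falls 0, 1 and 0. Of 22 fatty acid oxidation genes 3 rose (Acadm, Acads and Acot2), which is 13.6% beside the same 8.86%. The rises were 0, 4 and 1 without the A, B or C libraries and 6 with the block. Sdha, a subunit of complex II, had 5166, 4959.5 and 5577 normalized reads at day 3 and 9334, 7675 and 8734 at day 7, a log2 change of 0.71. Hadhb, of the trifunctional enzyme, had 729, 797 and 913 normalized reads at day 3 and 1057, 1172 and 1183 at day 7. It was not called (adjusted p = 0.0266, and 0.00169 with the replicate letter as a block). Cox8b, a subunit isoform of brown fat and muscle, had 6.38, 11.6 and 7.10 normalized reads at day 3 and 186, 280.1 and 155 at day 7 (log2 change 4.63 ± 0.48, adjusted p = 2.09e-07). Of the 7 brown adipocyte markers, Cidea and Cox8b rose, Dio2 fell from 147, 98.0 and 87.5 normalized reads to 2.35, 26.4 and 17.5. Ucp1 and Prdm16 had fewer than 10 reads in each of the 6 libraries. Slc2a4, the insulin-regulated glucose transporter GLUT4, had 240.4, 220.4 and 179 normalized reads at day 3 and 1311, 1037 and 1059 at day 7 (log2 change 2.41 ± 0.25, adjusted p = 1.83e-07). It was among 3 rises (14.3%) and 2 falls (9.52%) in 21 genes of insulin signalling and glucose transport, beside 8.86% and 6.49% of all genes. The calls in this list became 1 and 0 without the A or the C libraries and 6 and 7 with the block. Among these genes calls were lost for Sdha, Ndufs1, Acads, Acadm, Acot2, Dio2 and Cidea without A (adjusted p = 0.0102 to 0.113) and for Sdha, Ndufs1, Acadm, Acot2 and Dio2 without C (adjusted p = 0.0174 to 0.0494).

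**Figure D2:**
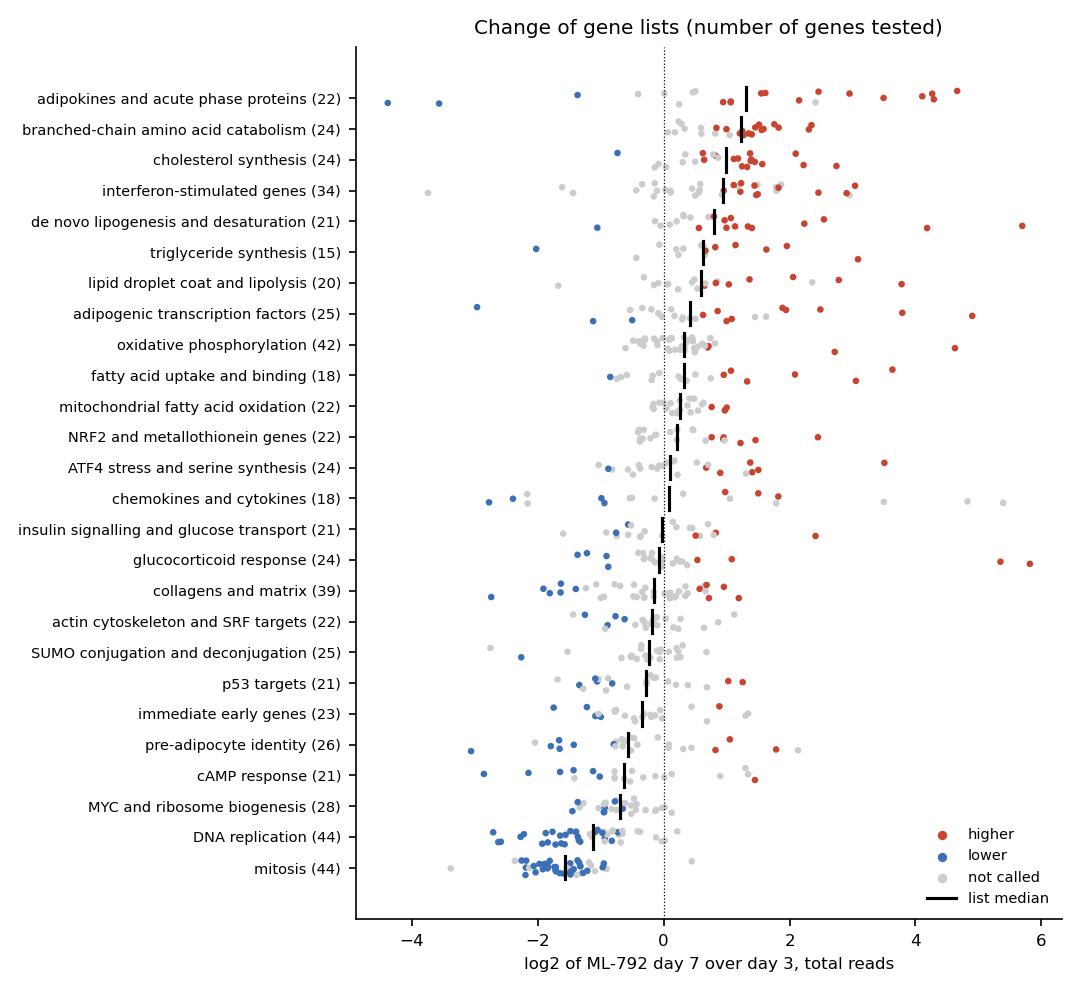
Each point is 1 gene of the 26 gene lists, placed at its log2 of ML-792 day 7 over day 3 in total reads (points are spread vertically for sight), red where called higher, blue where called lower and grey where not called at an adjusted p under 0.01, with a bar at the list median. The lists run from mitosis (median −1.56, 33 of 44 lower) to adipokines and acute phase proteins (median 1.31, 13 of 22 higher).

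Genes of the cell cycle fell, and no tested member of either cell cycle list rose. Of 44 mitosis genes 33 fell, with a median log2 change of −1.56, and of 44 DNA replication genes 26 fell, with a median of −1.12. Top2a, the topoisomerase that untangles chromosomes, had 926, 847 and 1097 normalized reads at day 3 and 150.3, 189 and 291 at day 7 (log2 change −2.19 ± 0.22, adjusted p = 1.04e-07). Birc5, survivin of the chromosomal passenger complex, had 674, 518 and 673 normalized reads at day 3 and 197, 207 and 164 at day 7 (log2 change −1.71 ± 0.17, adjusted p = 6.39e-08). Rrm2, the small subunit of ribonucleotide reductase, had 319, 378 and 394 normalized reads at day 3 and 63.4, 44.9 and 57.9 at day 7 (log2 change −2.71 ± 0.24, adjusted p = 1.37e-08). Mcm6, of the replicative helicase, dropped from a mean of 709 ± 34.5 to 198 ± 35.1 normalized reads, a log2 change of −1.84. In each of these genes the 2 days did not overlap, as in 2040 of the 2047 called genes. The number of mitosis genes called lower was 11, 34 and 16 without the A, B or C libraries and that of replication genes 14, 32 and 15, while the medians stayed between −1.67 and −1.63 and between −1.22 and −1.09. Of 28 MYC target and ribosome biogenesis genes 7 also fell, among them Nolc1, a nucleolar chaperone (log2 change −0.95 ± 0.12, adjusted p = 4.35e-06). The list had 1, 13 and 1 falls without the A, B or C libraries and 20 with the block, with medians from −0.70 to −0.66.

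The promoters of the mitosis genes share letters that the choice of the list did not use. Of the 36 tested mitosis genes with a promoter in the RefSeq table for GRCm38.p6 (250 bases before to 50 after a transcript start), 77.8% held TTTGAA, the core of the cell cycle homology region, on either strand (28 genes), against 14.2% of 9960 tested genes and 13.9% of 36 replication genes. CCAAT on either strand was in 72.2% of the mitosis promoters, 61.1% of the replication promoters, 94.1% of 17 cholesterol promoters, 21.1% of 19 adipokine promoters and 43.0% of all. Both motifs stood in 63.9% of mitosis promoters and in 5.90% of all. A match is a description of the sequence and not evidence of binding, and a gene with several starts counted as holding a motif if any of its promoters did. The promoters of a cyclin and of Top2a are shown because both hold both motifs, and that of Insig1 as one of the cholesterol promoters with CCAAT alone, with both motifs, on either strand, in capitals.

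Ccnb2, chr9:70421505-70421804, minus strand: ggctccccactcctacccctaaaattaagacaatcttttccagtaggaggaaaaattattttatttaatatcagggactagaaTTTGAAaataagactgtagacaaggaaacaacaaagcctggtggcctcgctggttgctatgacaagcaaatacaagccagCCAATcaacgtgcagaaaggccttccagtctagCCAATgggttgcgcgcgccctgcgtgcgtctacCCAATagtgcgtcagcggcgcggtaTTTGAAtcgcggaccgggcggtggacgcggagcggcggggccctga
Top2a, chr11:99024140-99024439, minus strand: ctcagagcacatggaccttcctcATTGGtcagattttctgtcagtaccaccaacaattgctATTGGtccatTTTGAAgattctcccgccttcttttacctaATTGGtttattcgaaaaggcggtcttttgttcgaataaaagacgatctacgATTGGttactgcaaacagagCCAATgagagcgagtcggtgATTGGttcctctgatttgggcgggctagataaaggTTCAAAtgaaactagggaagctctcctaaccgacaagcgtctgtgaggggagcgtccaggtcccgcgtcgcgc
Insig1, chr5:28071162-28071461, plus strand: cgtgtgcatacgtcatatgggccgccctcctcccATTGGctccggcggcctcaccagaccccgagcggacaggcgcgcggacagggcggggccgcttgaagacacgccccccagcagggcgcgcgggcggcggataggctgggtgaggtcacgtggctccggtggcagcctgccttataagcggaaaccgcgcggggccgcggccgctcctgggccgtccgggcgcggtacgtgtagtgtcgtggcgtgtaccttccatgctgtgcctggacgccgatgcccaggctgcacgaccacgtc

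Ccnb2, mitotic cyclin B2, had 87.2, 61.9 and 106 normalized reads at day 3 and 21.1, 23.8 and 49.8 at day 7 (log2 change −1.44 ± 0.27, adjusted p = 0.000284). Its promoter held 3 CCAAT boxes and 2 TTTGAA sites, and that of Top2a held 6 and 2.

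The genes with the 10 largest rises were taken among calls with no overlap between days and a mean of at least 100 normalized reads at the higher day, and 5 of them began at 5 reads or fewer over the 3 libraries. Tmem182, a transmembrane protein of adipocytes and muscle, went from 5 reads to 773, a ratio of 168-fold (exact 95% interval 71.9 to 520.2) that covers counting error only, and Card14, a scaffold of NF-κB signalling, from 5 to 515, a ratio of 112-fold (exact 95% interval 47.8 to 347). Rprml had 3 reads at day 3 and 263 at day 7, and Rtn4rl1 had 5 and 249. The others were measured on both days. Fam107a, an actin-bundling protein gene induced by glucocorticoids, had 31.9, 23.2 and 26.0 normalized reads at day 3 and 1472, 1399 and 1749.7 at day 7 (log2 change 5.82 ± 0.35, adjusted p = 4.41e-11). Sult1a1, a phenol sulfotransferase, had 88.3, 138 and 75.7 normalized reads at day 3 and 3623, 4946 and 3718 at day 7 (log2 change 5.35 ± 0.41, adjusted p = 4.5e-09). Both belong to the glucocorticoid response list. Cyp2e1, a cytochrome P450 that oxidises ethanol, rose from a mean of 7.90 to 313 normalized reads (log2 change 5.30 ± 0.53, adjusted p = 1.15e-07). Thrsp, given above, also belongs to the 10. 2610528A11Rik, listed under a clone identifier, had 47.9, 27.1 and 42.6 normalized reads at day 3 and 3078, 950.1 and 2508 at day 7 (log2 change 5.78 ± 0.43, adjusted p = 2.43e-09).

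The 10 largest falls were taken in the same way. Krtdap, keratinocyte differentiation-associated protein, had 301, 196 and 213 normalized reads at day 3 and 1.17, 0 and 2.69 at day 7, 615 reads in all against 3, a ratio of 188-fold (exact 95% interval 64.1 to 915) of day 3 over day 7. Krt9, a keratin of thick epidermis, had 871, 565 and 764 normalized reads at day 3 and 41.1, 38.3 and 36.4 at day 7 (log2 change −4.24 ± 0.43, adjusted p = 2.79e-07). Lgals7, an epithelial galectin, had 270.1, 538 and 199.9 normalized reads at day 3 and 15.3, 23.8 and 6.73 at day 7 (log2 change −4.44 ± 0.47, adjusted p = 2.5e-07). No overlap between days was a condition of the choice, so it is no further support for these genes. Scgb1c1, a secretoglobin, fell from a mean of 120.3 ± 25.7 to 4.27 ± 3.35 normalized reads. H19, an imprinted long non-coding RNA, was spread at day 3, with 3581, 1004 and 2889 normalized reads. At day 7 it had 56.4, 51.5 and 91.6 (log2 change −5.23 ± 0.81, adjusted p = 4.94e-05). Pi16, a marker of fibroblast progenitors, had 278, 249 and 153 normalized reads at day 3 and 16.4, 1.32 and 1.35 at day 7. Angptl7, a secreted angiopoietin-like protein, had 219, 161 and 329 normalized reads at day 3 and 12.9, 7.93 and 0 at day 7. Pi16 and Angptl7 both had a day 7 library at or next to no reads. Trf, which encodes transferrin, had 133, 112 and 147 normalized reads at day 3 and 2.35, 6.61 and 14.8 at day 7 (log2 change −4.05 ± 0.52, adjusted p = 3.46e-06). Inhba, the activin A subunit, had 188, 339 and 245 normalized reads at day 3 and 10.6, 26.4 and 12.1 at day 7 (log2 change −3.97 ± 0.51, adjusted p = 4.49e-06). With Saa3, given above, these make 10, of which H19 was not called without the A libraries (adjusted p = 0.017).

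Fibroblast and matrix genes went both ways. Of 26 pre-adipocyte genes 6 fell (Cd24a, Gata3, Klf10, Ly6a, Pdgfra and Sox9) and 3 rose (Foxs1, Wnt5a and Zfp521). These were 2 falls and 1 rise without the A or without the C libraries, 11 and 3 without the B libraries, and 13 and 3 with the replicate letter as a block. Ly6a, the progenitor surface marker Sca-1, had 3958, 4343 and 4379.5 normalized reads at day 3 and 546, 509 and 466 at day 7 (log2 change −3.06 ± 0.18, adjusted p = 2.96e-11). Pdgfra, the PDGF receptor of mesenchymal progenitors, dropped from a mean of 2623 ± 106 to 975 ± 66.4 normalized reads. Cd44, the hyaluronan receptor, had 729, 775 and 739 normalized reads at day 3 and 532, 522 and 566 at day 7. Its groups did not overlap but it missed the threshold (log2 change −0.47 ± 0.14, adjusted p = 0.0128), and with the replicate letter as a block the adjusted p was 0.00257. Cxcl12, a stromal chemokine, behaved likewise, with 2923, 3367 and 3001 normalized reads at day 3 and 1678, 2336 and 2392 at day 7, no overlap and no call (adjusted p = 0.0323, and 0.000323 with the block). Beside 8.86% and 6.49% of all genes tested, 5 of 39 collagen and matrix genes rose (12.8%) and 6 fell (15.4%). None of them rose and 5 fell without the A or without the C libraries, 5 rose and 10 fell without the B libraries, and 7 rose and 12 fell with the block. Postn, periostin, had 10363, 12675 and 11714 normalized reads at day 3 and 2684, 3683 and 3556 at day 7 (log2 change −1.81 ± 0.19, adjusted p = 3.04e-07). Fbln2, an elastic fibre protein, fell by 1.91 on the log2 scale. Col3a1, fibrillar collagen III, stood on the other side, with 14349, 11778 and 14628 normalized reads at day 3 and 30192, 25504 and 37497 at day 7 (log2 change 1.19 ± 0.19, adjusted p = 4.08e-05). Of 22 actin and SRF target genes 4 fell (Srf, Tpm1, Tpm2 and Zyx) and none rose, and none of the 4 was called without the A or without the C libraries (adjusted p = 0.0118 to 0.147).

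Interferon-stimulated genes rose in 11 of 34 members, with a median log2 change of 0.94, and none fell. Psmb8, a catalytic subunit of the immunoproteasome, had 53.2, 28.4 and 27.2 normalized reads at day 3 and 262, 338 and 304 at day 7 (log2 change 3.04 ± 0.29, adjusted p = 4.63e-08). Psmb9, another catalytic subunit of that complex, had 36.2, 61.9 and 56.8 normalized reads at day 3 and 469.6, 242 and 446 at day 7 (log2 change 2.91 ± 0.35, adjusted p = 1.59e-06). B2m, the light chain of MHC class I, rose from a mean of 16324 ± 4480.5 to 57790 ± 11367 normalized reads and Ifi27 from 2508 ± 196 to 5887 ± 261. Without the A, B or C libraries 7, 9 and 6 were called. Of 18 chemokines and cytokines 3 rose (Ccl7, Ccl9 and Csf1) and 4 fell (Cx3cl1, Cxcl1, Cxcl13 and Cxcl5), with 2 each way without the A or without the C libraries. Cxcl13, a chemokine of B cells, had 848, 981 and 1159 normalized reads at day 3 and 164, 198 and 206 at day 7 (log2 change −2.39 ± 0.25, adjusted p = 1.61e-07). No macrophage marker was called higher beside these genes, and Cd68, a lysosomal protein also expressed outside macrophages, fell (log2 change −1.73 ± 0.35, adjusted p = 0.000816), a call lost without the A (adjusted p = 0.0369) or C libraries (adjusted p = 0.03).

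Calls in the remaining lists went both ways, where 8.86% of all genes tested rose and 6.49% fell. Of 25 genes of SUMO conjugation and deconjugation 1 fell, Sp100 of the nuclear bodies, with 39.4, 40.0 and 48.5 normalized reads at day 3 and 16.4, 2.64 and 6.73 at day 7 (log2 change −2.26 ± 0.55, adjusted p = 0.00357), and none rose. The call of Sp100 was lost without the B libraries (adjusted p = 0.0149) and without the C libraries (adjusted p = 0.117), whereas 4 genes of the list fell without the B libraries and 7 with the block. Sae1 and Uba2, the subunits of the enzyme that ML-792 blocks, had log2 values of −0.42 (adjusted p = 0.135) and −0.35 (adjusted p = 0.212). Zmiz1, a SUMO ligase, had 1977, 1879.6 and 1711 normalized reads at day 3 and 1394, 1389 and 1138 at day 7. It was not called (adjusted p = 0.0102) but would be with the replicate letter as a block (adjusted p = 0.00108). Sumo2 had only 11.7, 12.9 and 11.8 normalized reads at day 3 and 2.35, 2.64 and 0 at day 7. Reads of genes with processed copies elsewhere in the genome, such as Sumo2, are uncertain. Of 24 ATF4 stress genes 6 rose and 1 fell, but 0 and 0 without the A libraries and 1 and 0 without the C libraries. Of 22 NRF2 and metallothionein genes 6 rose, and 1 without the A or without the C libraries. Of 24 glucocorticoid genes 4 rose and 4 fell, and without the A libraries 3 and 1, without C 2 and 3. Of 21 cAMP response genes 1 rose and 6 fell, and 1 each way without the A or without the C libraries. Of 23 immediate early genes 1 rose and 4 fell, and 0 and 3 without the A libraries. Of 21 p53 targets 2 rose (9.52%) and 4 fell (19.0%). Without the A libraries no rise and 1 fall were left, and without the C libraries no rise and 2 falls. With the block the immediate early genes had 4 rises and 6 falls, the cAMP genes 4 and 7 and the p53 targets 3 and 7. Among them Pde4d, a cAMP phosphodiesterase, fell (log2 change −1.65 ± 0.14, adjusted p = 1.04e-08). Rgs2, a brake on G protein signalling, rose from 4446, 3372 and 4179.6 normalized reads to 10237, 10073 and 12467 (log2 change 1.45 ± 0.16, adjusted p = 4.31e-07). Dusp6, an ERK phosphatase, fell from 2686, 3050.2 and 2422 to 773, 941 and 717.

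The change from day 3 to day 7 was then compared with that in DMSO, gene by gene, as a difference of the 2 log2 changes (± SE). Across the 13337 genes the 2 sets of log2 values, which share no library, correlated with Pearson r = 0.613 and Spearman rho = 0.600, as a description over genes that are not independent. Of the genes called higher 688 were called in both treatments (58.3% of the ML-792 calls and 54.9% of the DMSO calls), of those called lower 464 (53.6% and 51.2%), and 15 genes were called in opposite directions. The difference itself passed an adjusted p of 0.1 for 709 genes. The change was more positive in ML-792 for 345 (2.59%) and more negative for 364 (2.73%). The list counts of differences below are to be read beside these shares. A block for the replicate letter raised the number to 1761, and 131, 1120 and 119 passed without the A, B or C libraries.

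**Figure D3:**
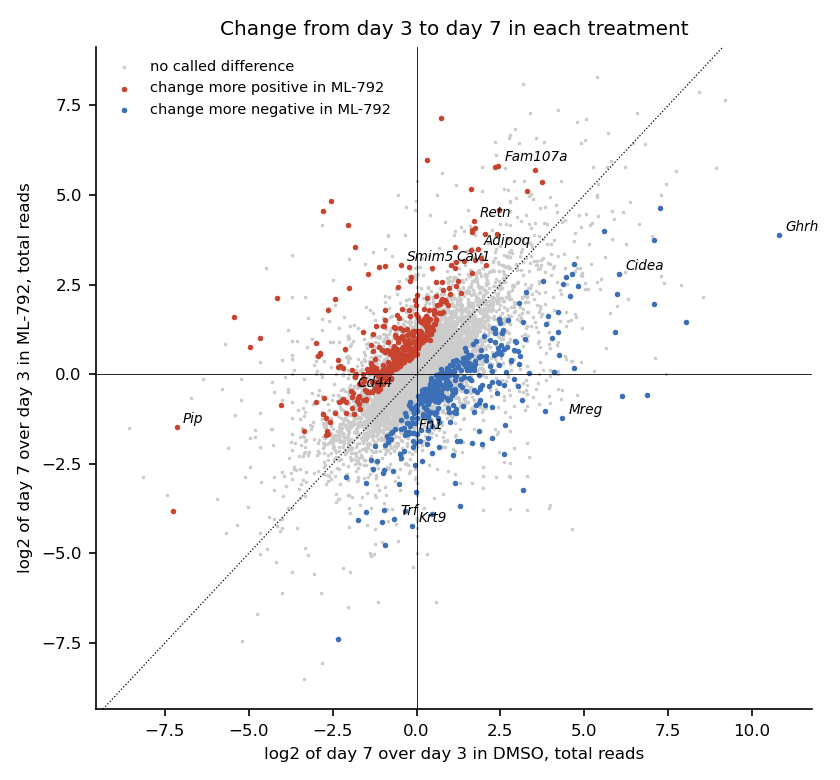
Log2 of day 7 over day 3 in total reads, DMSO on the x axis and ML-792 on the y axis, 1 point per gene tested, with the line of equal change dotted. The 345 genes whose change was more positive in ML-792 are red and the 364 whose change was more negative are blue; of the genes named, Pip lies at a difference of 5.67, and Ghrh, with next to no reads in DMSO at day 3, at −6.92, a value that depends on the prior count.

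Among the 5 named genes with the largest positive differences, the levels in DMSO at day 3 were above those in ML-792 in each case. Pip, the prolactin-induced protein, was at a mean of 2478 ± 402 at day 3 and 17.6 ± 9.98 at day 7 in DMSO (SD, n = 3) and went from 29.1 ± 11.9 to 10.3 ± 1.88 in ML-792, uncalled there (adjusted p = 0.0158). The difference was 5.67 ± 0.64, adjusted p = 1.29e-05. Ren1, renin, which has a near-identical copy in some mouse strains, fell in both, from 1314 to 8.49 normalized reads in DMSO and from 104 to 7.46 in ML-792 (difference 3.45 ± 0.93, adjusted p = 0.0405). Smim5, a small membrane protein, had 25.5, 6.45 and 16.6 normalized reads at day 3 and 124, 136 and 147 at day 7 in ML-792 and 149 ± 16.8 at day 3 and 108 ± 23.6 at day 7 in DMSO (3.50 ± 0.67, adjusted p = 0.00322). Myh11, smooth muscle myosin, rose in ML-792 from 4 reads to 220, and Fsd2 from a mean of 2.72 ± 1.80 to 102 ± 12.1 normalized reads; in DMSO the means at days 3 and 7 were 32.2 and 164 for Myh11 and 40.2 and 125 for Fsd2 (differences 3.45 ± 1.00, adjusted p = 0.0574, and 3.53 ± 0.79, adjusted p = 0.0177). Among these 5, calls were lost for Ren1, Myh11 and Fsd2 without A (adjusted p = 0.154 to 0.413), for Ren1 without B (adjusted p = 0.542) and for Ren1, Smim5, Myh11 and Fsd2 without C (adjusted p = 0.172 to 0.338), and that of Ren1 was 1.38 without the B libraries.

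On the other side, Ghrh, growth hormone-releasing hormone, stood at a mean of 0.740 ± 1.28 at day 3 and 1585 ± 293 at day 7 in DMSO and at 1.06, 0 and 4.73 normalized reads at day 3 and 31.7, 15.9 and 44.4 at day 7 in ML-792, a difference of −6.92 ± 1.67, adjusted p = 0.019, whose size depends on the prior count. Mreg, melanoregulin, was at 13.2 ± 1.65 at day 3 and 271 ± 89.9 at day 7 in DMSO, and at a mean of 15.5 ± 14.1 and 6.61 ± 6.01 in ML-792 (−5.57 ± 1.09, adjusted p = 0.00396). Slc22a20, an organic anion transporter, was at 8.26 ± 5.25 at day 3 and 120.1 ± 28.1 at day 7 in DMSO and under 12 normalized reads in every ML-792 library. Cyp4b1, a cytochrome P450, had no read in DMSO at day 3 and 7.42 at day 7, while ML-792 held 118, 139 and 132 normalized reads at day 3 and 358, 229.9 and 296 at day 7. For Krtdap and Krt9 the treatments lay apart at day 3, where DMSO had a mean of 9.80 and 72.2 normalized reads, and ML-792 237 and 733. The differences were −5.05 ± 1.15, adjusted p = 0.0126, with the same limit on its size, and −4.11 ± 0.58, adjusted p = 0.000209. Calls in this group were lost for Ghrh, Mreg, Slc22a20, Cyp4b1 and Krtdap without A (adjusted p = 0.174 to 0.909), for Krtdap without B (adjusted p = 0.102) and for Ghrh, Mreg, Slc22a20, Cyp4b1 and Krtdap without C (adjusted p = 0.117 to 0.67), and the difference of Slc22a20 went from −4.88 to −2.36 without A.

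Adipokines and lipid genes stood on both sides. Adipoq was at 30380 ± 3209 at day 3 and 107630 ± 7475 at day 7 in DMSO, so that ML-792 began lower and ended higher (difference 1.67 ± 0.31, adjusted p = 0.00259). Retn was at 6803 ± 482 at day 3 and 22072 ± 566 at day 7 in DMSO with the lower mean in ML-792 at each day and the wider gap at day 3 (difference 2.57 ± 0.42, adjusted p = 0.00061). Cav1 and Cebpd also had a more positive change in ML-792, by 2.04 ± 0.24, adjusted p = 1.74e-05, and 1.20 ± 0.23, adjusted p = 0.00322. Scd1 rose less, at 21078 ± 3299 at day 3 and 106900 ± 22175 at day 7 in DMSO (difference −1.21 ± 0.32, adjusted p = 0.0363). In triglyceride synthesis 4 of 15 genes had a more negative change, Aqp7, Gk, Gpd1 and Pck1, and none a more positive one, which left 2 without the A and 1 without the C libraries. Gpd1, glycerol-3-phosphate dehydrogenase, had 26734, 25644 and 26812 normalized reads at day 3 and 49298, 45431 and 45050 at day 7 in ML-792 and 4970.5 ± 451 at day 3 and 28642 ± 6312 at day 7 in DMSO (−1.71 ± 0.28, adjusted p = 0.000549). Cidea, a droplet protein of brown fat, was at 243, 201 and 164 normalized reads at day 7 in ML-792 and at a mean of 853 ± 103 in DMSO (−3.26 ± 0.63, adjusted p = 0.00322), and Acot2, a mitochondrial thioesterase, differed by −1.94 ± 0.26, adjusted p = 6.85e-05. The metallothioneins Mt1 and Mt2 rose in DMSO by a log2 of 1.70 and 1.88 and had 0.21 and −0.40 in ML-792, both uncalled. The difference was called for both, and they were among 6 of 22 genes with a more negative change in the NRF2 and metallothionein list, of which 1 passed without the A and 2 without the C libraries. Difference calls were lost for Adipoq, Scd1, Aqp7 and Cidea without A (adjusted p = 0.15 to 0.423) and for Adipoq, Retn, Cebpd, Scd1, Aqp7 and Gk without C (adjusted p = 0.112 to 0.255).

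Cell cycle genes fell in both treatments, 33 of 44 mitosis genes in ML-792 and 37 in DMSO, and 3 differed, Aurka, Birc5 and Spc25, each with the smaller fall in ML-792. Birc5 was at 1381 ± 142 at day 3 and 211 ± 43.0 at day 7 in DMSO (difference 1.00 ± 0.23, adjusted p = 0.0126), where the ML-792 mean at day 3 was 622 ± 89.8. With the block 13 mitosis genes differed in that direction, and 0, 9 and 2 without the A, B or C libraries. None of the 44 DNA replication genes or 24 branched-chain genes was called different in this fit, and of 24 cholesterol genes Dhcr7 and Stard4 had a more positive change and Ebp a more negative one. Of the branched-chain genes DESeq2 called 5 and the block 8 more positive in ML-792, and the block also gave 2 replication genes a more negative change. The call of Birc5 was lost without the A libraries (adjusted p = 0.174) and without the C libraries (adjusted p = 0.129). Immediate early genes differed in 10 of 23, 9 with a more positive change in ML-792 (Btg2, Dusp1, Egr2, Egr3, Fos, Fosb, Ier2, Junb and Zfp36), where 13 fell in DMSO and 4 in ML-792. The more positive changes numbered 2, 6 and 0 without the A, B or C libraries. Chemokines differed in 5 of 18, Ccl2, Ccl5, Ccl7, Cxcl12 and Il33, each more positive in ML-792, and in 2, 4 and 1 without the A, B or C libraries. Ccl7, a monocyte chemokine, had 54.2, 77.3 and 123 normalized reads at day 3 and 174, 223 and 325 at day 7 in ML-792 and 115 ± 3.83 at day 3 and 60.6 ± 17.7 at day 7 in DMSO (2.43 ± 0.36, adjusted p = 0.00021). Cd44 fell by 1.95 on the log2 scale in DMSO, and its difference was 1.49 ± 0.19, adjusted p = 6.63e-05. Matrix genes differed in 8 of 39, 4 each way, among them Fn1, Postn and Col3a1, but 1 each way passed without the A libraries and 0 and 2 without the C libraries. Postn in DMSO was at 2147 ± 472 at day 3 and 1275 ± 284 at day 7, below its ML-792 levels at both days (−1.06 ± 0.27, adjusted p = 0.0263). Of Ccl7, Cd44, Cxcl12, Fn1 and Postn, difference calls were lost for Fn1 and Postn without A (adjusted p = 0.283 to 0.5) and for Cxcl12, Fn1 and Postn without C (adjusted p = 0.247 to 0.321).

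**Figure D4:**
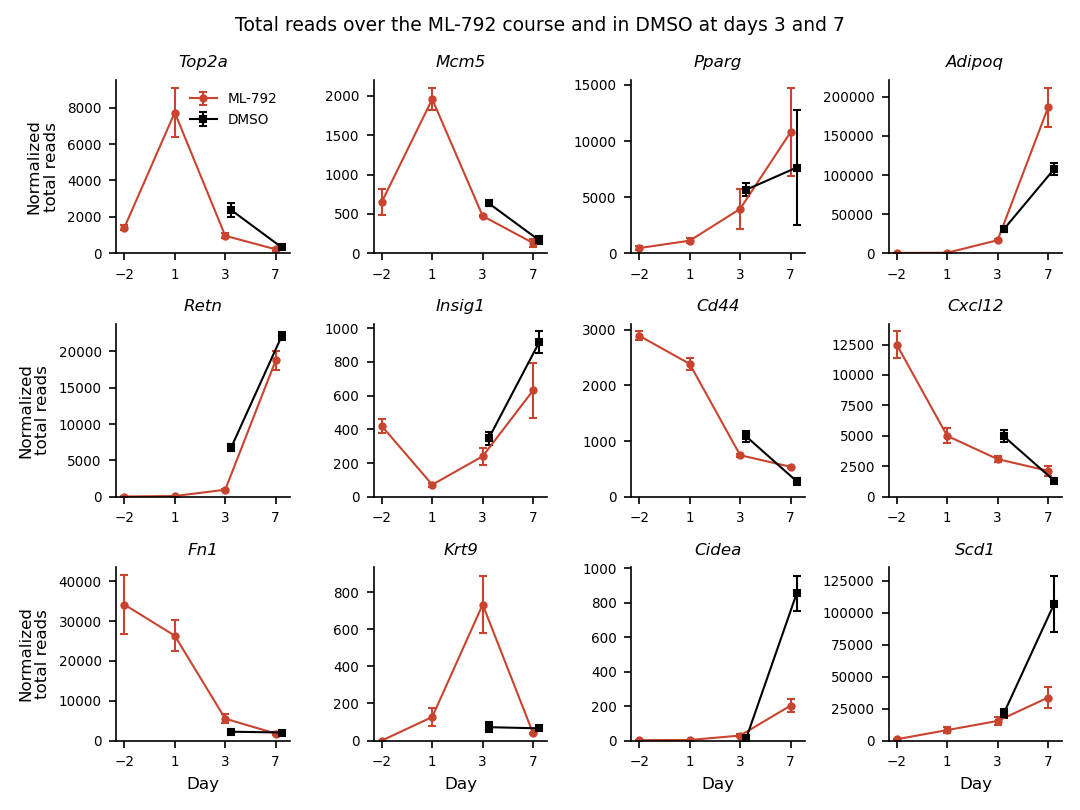
Mean normalized total reads (bars, SD of 3 libraries) of 12 genes at days −2, 1, 3 and 7 of the ML-792 course in red (linear axes from 0), with DMSO at days 3 and 7 in black. Top2a and Mcm5 peaked at day 1 and were lowest at day 7, Krt9 peaked at day 3, and Adipoq and Retn were near 0 until day 3.

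Set in the 4 days of ML-792, the steps between days 3 and 7 were of different kinds. Top2a had a mean of 1400.1 ± 149 normalized reads at day −2, 7741 ± 1344 at day 1, and the 957 and 210.1 above at days 3 and 7, so that day 7 lay below the level before induction. Krt9 had 0, 0 and 0 normalized reads at day −2 and 119, 83.1 and 179.8 at day 1, and its day 3 values were the highest of the course. Fn1 and Cd44 were highest at day −2 and lower at each later day. Insig1 was at 420.2 ± 44.0 at day −2 and 72.0 ± 12.9 at day 1, so that its day 7 mean was the highest of the 4. These levels were not tested here.

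Labelled reads, which include conversions from sequencing errors as well as from the pulse, were few at these days. Their share of total reads was 0.943%, 0.897% and 0.968% at day 3 and 0.846%, 0.786% and 0.834% at day 7 in ML-792. Every day 7 library was lower, and the mean went from 0.936% ± 0.036 to 0.822% ± 0.032 (SD, n = 3). A two-sided exact permutation over the libraries gave p = 0.1, which 3 against 3 cannot go below. DMSO libraries held a labelled share of 1.02% ± 0.11 and then 1.01% ± 0.091 (exact permutation, p = 0.9), and the difference between treatments was not tested. Labelled counts were scaled by the total reads and their TMM factors, so the gene values hold a shift of the labelled share mixed with those factors. The median log2 value over 6444 genes was −0.16 in ML-792, or −0.25 without TMM factors, and 0.12 in DMSO.

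In labelled reads 16 genes rose (0.248%) and 13 fell (0.202%) in ML-792 at an adjusted p under 0.01, which puts 55.2% of the calls on the higher side; 800 genes had an unadjusted p under 0.05. Scaled by the labelled reads themselves, 28 rose and 10 fell (73.7% higher) with a median of −0.01, and without TMM factors 13 rose and 20 fell (39.4% higher). Of the 29 genes 28 were also called in the same direction in total reads, which count the same molecules and are not independent of them, and the exception was Prim2 (total adjusted p = 0.066). Without the A libraries 3 rose and 1 fell, and without the C libraries 2 and 2. Among the 572 genes that rose in total reads and were tested in labelled reads, 475 had a labelled log2 value above 0, and among 587 that fell 526 were below 0. Over all 6444 genes tested in labelled reads, 56.9% of the values were below 0.

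Adipokines made up 7 of the 16 labelled rises. Adipoq had 94.7, 89.0 and 69.8 normalized labelled reads at day 3 and 674, 580.1 and 595 at day 7 (log2 change 2.87 ± 0.33, adjusted p = 1.32e-08), a step seen in all libraries. Cfd had 0, 3.87 and 2.37 normalized labelled reads at day 3 and 90.4, 109.7 and 91.6 at day 7, which was 5 raw reads against 228, a ratio of 49.7-fold (exact 95% interval 21.0 to 154). Retn had 1 raw labelled read at day 3 and 60 at day 7, a ratio of 65.4-fold (exact 95% interval 11.3 to 2624). Thrsp had 2 and 53, a ratio of 28.9-fold (exact 95% interval 7.61 to 245), and both were called (adjusted p = 0.00268 and 0.00378). Thbd, the anticoagulant receptor thrombomodulin, had 5 and 62, a ratio of 13.5-fold (exact 95% interval 5.49 to 43.1). Hp rose from a mean of 7.43 ± 7.64 to 81.4 ± 20.6 normalized labelled reads (log2 change 3.39 ± 0.60, adjusted p = 0.000374). The other labelled rises were Agt, Aldh3b2, B2m, Bnip3, Cav1, Nampt, Orm3, Ppp1r3c, Socs3 and Vegfa, with log2 values from 1.44 to 3.04. Among the genes the naming rule takes, calls were lost for Retn, Thrsp and Thbd without A (adjusted p = 0.147 to 0.305), for Thbd without B (adjusted p = 0.0381) and for Retn, Thrsp, Thbd and Hp without C (adjusted p = 0.0143 to 0.0964).

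The labelled falls by the naming rule were Peg10, Pex5, Ets2, Fn1 and Irak2. Peg10, an imprinted gene derived from a retrotransposon, had 23.4, 27.1 and 22.5 normalized labelled reads at day 3 and 2.35, 0 and 4.04 at day 7 (adjusted p = 0.00273). Pex5, the peroxisomal import receptor, had 30.8, 32.2 and 36.7 normalized labelled reads at day 3 and 1.17, 2.64 and 5.39 at day 7 (log2 change −3.41 ± 0.71, adjusted p = 0.00378), a wider step than in total reads (log2 change −0.76 ± 0.19, adjusted p = 0.0037); the difference between the 2 readouts was not tested. Ets2, an ETS transcription factor, had 28.7, 43.8 and 40.2 normalized labelled reads at day 3 and 4.70, 9.25 and 1.35 at day 7 (log2 change −2.85 ± 0.53, adjusted p = 0.00106). Irak2, a kinase of Toll-like receptor signalling, had 50.0, 45.1 and 60.3 normalized labelled reads at day 3 and 10.6, 14.5 and 4.04 at day 7 (log2 change −2.40 ± 0.47, adjusted p = 0.00233). The naming rule took only calls with no overlap between days, so the gap between days in these genes is no further support. Fn1, fibronectin, had 57.4, 70.9 and 54.4 normalized labelled reads at day 3 and 8.22, 13.2 and 5.39 at day 7 (log2 change −2.75 ± 0.38, adjusted p = 2.27e-06). In total reads it had 4904, 6886 and 4719 normalized reads at day 3 and 1765, 2096 and 1445 at day 7 (log2 change −1.64 ± 0.25, adjusted p = 2.54e-05). The other falls were Dusp6, Efnb2, Mgp, Nfkbiz, Plpp1, Prim2, Rps15a and Sned1; Rps15a has many processed copies and its reads are uncertain. No list of cell cycle genes had a labelled call, but the replication list holds Prim1 and not Prim2, the other DNA primase subunit, which fell. Top2a had 12.8, 12.9 and 11.8 normalized labelled reads at day 3 and 9.39, 0 and 5.39 at day 7 (log2 −1.29, adjusted p = 0.39). The labelled medians were −1.04 over 29 mitosis genes and −1.28 over 22 replication genes, beside −0.16 over all genes tested. Genes passed the filter on all 8 groups, so some members had almost no labelled reads at days 3 and 7. Ccnb2, for example, had raw labelled counts of 0, 1 and 0 on each day. Such values depend on the prior count, and the medians are no support for a labelled fall. At these counts the lack of a call does not show that these genes held level. Among the 5 falls, calls were lost for Peg10, Pex5, Ets2 and Irak2 without A (adjusted p = 0.0591 to 0.2), for Peg10 and Pex5 without B (adjusted p = 0.012 to 0.0296) and for Peg10, Pex5, Ets2 and Irak2 without C (adjusted p = 0.0417 to 0.217).

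**Figure D5:**
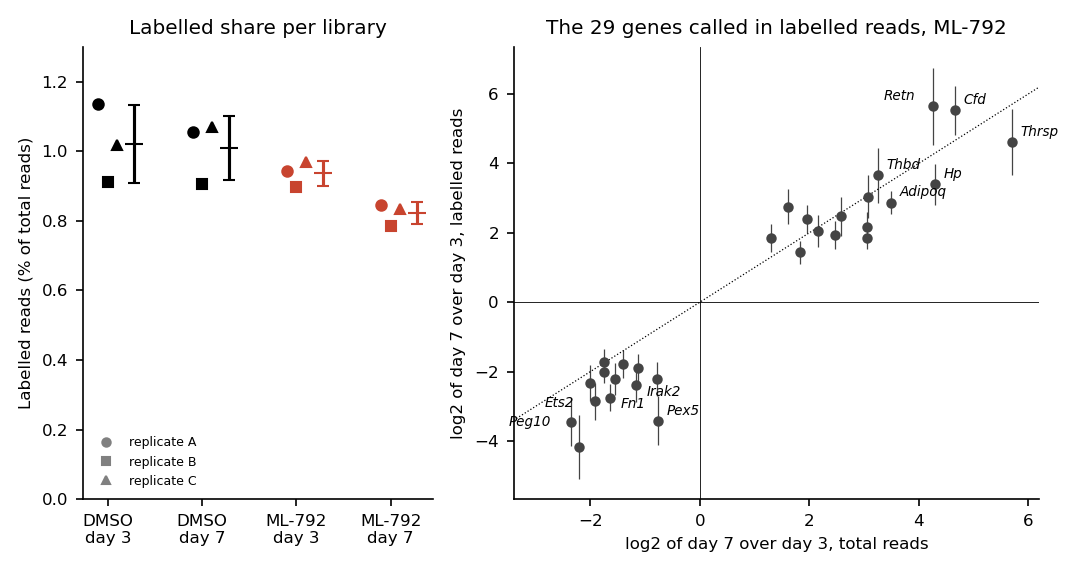
Left, labelled reads as a percentage of total reads in each library of days 3 and 7 (symbols), with the mean and SD beside them; the ML-792 libraries of day 7 are the lowest of the 12. Right, log2 of day 7 over day 3 in ML-792 for the 29 genes called in labelled reads, total reads on the x axis and labelled reads on the y axis (bars, SE of the labelled value; dotted, equal values); each of the 29 has the same direction in both readouts.

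Only 1 labelled gene differed between treatments at an adjusted p under 0.1 (0.0155%), with 562 at an unadjusted p under 0.05. This was Fn1, at a mean of 12.9 ± 7.62 normalized labelled reads at day 3 and 14.4 ± 2.82 at day 7 in DMSO (SD, n = 3), where ML-792 had 60.9 and 8.94. The difference of log2 changes was −2.90 ± 0.55, adjusted p = 0.0117, and −1.50 in total reads. Without the A libraries no gene passed, without B 18 and without C 2; DESeq2 called 42. Fn1 was not among the genes passing without the C libraries (adjusted p = 0.497).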

How the data were processed

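SLAMseq and QuantSeq libraries of 3T3-L1 cells were analysed from 2 tables of read counts. The authors demultiplexed reads (bcl2fastq 2.17.1.14 per the submitters' processing notes), mapped and counted them with SlamDunk on RefSeq 3′UTR entries of mm10, and deposited raw counts of all reads and of reads with a T to C conversion for 91830 entries of 26995 symbols. No normalization was applied to the deposited counts. A further 6 library columns of each table match no sample and were not used. Labelled counts include sequencing errors, since no T to C background was subtracted here.

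Each gene was represented by its entry with the most total reads on average. Counts were fitted in edgeR 4.0.16 (R 4.3.3, robust quasi-likelihood, 8 group means, all 24 libraries, filterByExpr with minimum counts of 10 and 15, TMM). Labelled counts were scaled by the size and TMM factor of the total reads of their library. Calls used Benjamini-Hochberg adjusted p under 0.01 for the change between days and under 0.1 for the difference from DMSO, a difference of log2 changes. Fold changes carry a prior count of 2. Labelled shares were compared by an exact permutation test over samples. Scripts were tested on simulated counts, with 50 genes changed at each size. The simulation used a single dispersion for all genes of a readout and changed only genes above a minimum mean count. Means were taken over the 24 libraries, whose labelled share reached 3.67%, against 0.786% to 0.968% in the 6 libraries. The shares recovered hold for that setting and not for all genes tested. Of changes of log2 2 and −2, 100% were called in total reads, but 22% and 14% in labelled reads. Of changes of log2 1 and −1, 32% and 40% were called in total reads and 0% in labelled reads. DESeq2 1.42.0, other filters, scalings, thresholds and subsets, and leaving out each letter, were alternatives.

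Samples were grouped by their titles, which carry the letters A, B and C. Deviations from the group means correlated between same-letter libraries of days 3 and 7 at 0.178, 0.393 and 0.241 in total reads. Between unlike letters the correlations were −0.27 to 0.0670. Libraries of a letter thus varied together, but the main fit held no term for the letter. Adjusted p values and calls come from that unpaired fit unless the replicate block or another alternative is named. Genes named were the 10 largest rises and falls in total reads (mean of at least 100 normalized reads), the 5 in labelled reads (at least 10), the 5 largest differences each way, up to 4 of each of 30 lists by adjusted p, and 17 genes the study names. The largest rises and falls were taken only among calls whose days did not overlap. Others (Bcat2, Ccnb2, Col3a1, Insig1, Plin1, Mcm5, Sae1, Uba2, Mt1, Mt2, Elovl6, Lss and further complete sets of called members) were chosen after their values were seen. The gene lists and comparisons were chosen with earlier results of these data known. No use of molecular identifiers is given in the sources used here, so intervals cover counting error only. Some genes that the naming rule takes are not reported here. Promoter sequences came from RefSeq (GRCm38.p6).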

Additional observations from a re-analysis of the deposited data

Results flagged for a closer look

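In 48 of the genes named, the change from day 3 to day 7 in total reads differed between ML-792 and DMSO in the test of the difference itself (edgeR, adjusted p under 0.1), and the values below are differences of log2 changes, ML-792 minus DMSO. They were more negative in ML-792 by −6.92 for Ghrh, −5.57 for Mreg, −5.05 for Krtdap, −4.88 for Slc22a20, −4.72 for Cyp4b1, −4.11 for Krt9, −3.83 for Scgb1c1, −3.37 for Trf and −3.34 for Sp100. Smaller negative differences were −3.26 for Cidea, −2.64 for Cox8b, −2.54 for Ly6a, −2.29 for Aqp7, −1.94 for Acot2, −1.93 for Gk, −1.87 for Peg10, −1.86 for Ets2 and −1.73 for Cox7a1, and then −1.71 for Gpd1, −1.62 for Trp53inp1, −1.50 for Fn1, −1.32 for Lcn2, −1.27 for Zyx, −1.21 for Scd1, −1.06 for Postn, −1.02 for Plk2 and −0.88 for Pde4d. The positive differences were 0.75 for Mthfd2, 1.00 for Birc5, 1.18 for Nqo1, 1.20 for Cebpd, 1.32 for Rgs2, 1.33 for Thbd, 1.37 for Cxcl12, 1.41 for Foxs1, 1.49 for Cd44, 1.61 for Sult1a1 and 1.67 for Adipoq, and the wider ones 2.04 for Cav1, 2.16 for Thrsp, 2.43 for Ccl7, 2.57 for Retn, 3.38 for Fam107a, 3.45 for Ren1, 3.45 for Myh11, 3.50 for Smim5, 3.53 for Fsd2 and 5.67 for Pip. In labelled reads 1 gene was singled out by the same test, Fn1, at −2.90. The values for Cyp4b1, which had no read in DMSO at day 3, and for Ghrh and Krtdap, with 3 reads or fewer in a day of 1 treatment, depend on the prior count and are no measure of size. Leaving out the A libraries took the call from 27 of the 48 genes, the B libraries from 4 and the C libraries from 33. Besides those given in the report, difference calls were lost for Trf, Scgb1c1, Cox8b, Cox7a1, Lcn2, Plk2, Pde4d, Mthfd2, Nqo1, Foxs1, Sult1a1 and Thrsp without A (adjusted p = 0.157 to 0.778), for Sp100 and Cox8b without B (adjusted p = 0.159 to 0.162) and for Sp100, Scgb1c1, Cox8b, Cox7a1, Lcn2, Plk2, Pde4d, Mthfd2, Nqo1, Rgs2, Thbd, Foxs1, Sult1a1 and Thrsp without C (adjusted p = 0.153 to 0.645). Groups of 3 libraries were not examined for single outlying libraries.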

How the results depend on the processing

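Alternatives changed the number of calls, and some turned the majority direction, while few values of named genes changed sign. In total reads 1181 genes rose, 866 fell and 709 differed from DMSO. These counts were 1832, 1535 and 1761 with the replicate block, 338 to 1362, 224 to 1210 and 119 to 1120 when 1 replicate letter was left out (lowest without A, A and C, highest without B), and 1845, 1491 and 495 at an adjusted p under 0.05. DESeq2 gave 1502, 1113 and 1037, and the 6 libraries alone gave 820 rises and 557 falls. With a further limit of 1 on the log2 change, 827, 517 and 497 passed. No TMM factors gave 1021 rises and 1106 falls, with 48.0% of calls higher in place of 57.7%.

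In labelled reads 16 rose, 13 fell and 1 differed. DESeq2 gave 27, 33 and 42, the replicate block 33, 40 and 26, an adjusted p under 0.05 gave 32, 39 and 1, and leaving out 1 letter gave 2 to 22, 1 to 18 and 0 to 18. In labelled reads the correlations of same-letter libraries were lower, at 0.0563, 0.113 and 0.0855, although each library correlated best with its own letter. With at least 10 reads over the 24 libraries 20, 22 and 10 genes were called, with no filter 19, 17 and 5, without TMM factors 13, 20 and 1, and scaled by labelled reads 28, 10 and 5. The 12 ML-792 libraries alone gave 21 and 26, the 6 libraries alone 23 and 26, and the 12 libraries of days 3 and 7 gave 15 differences. The split toward higher calls was 55.2%, and 45.0% with DESeq2, 45.2% with the replicate block, 39.4% without TMM factors and 73.7% scaled by labelled reads. The fall of the labelled share by 0.114 percentage points stayed between 0.104 and 0.123 when 1 letter was left out.

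Single values that changed sign were those of Ywhag in labelled reads (−0.15 to 0.28 when 1 letter was left out, lowest without A, with 0.13 over all), Pecam1 (−0.90 to 0.35, highest without B, with −0.32 over all), Rxra (−0.078 to 0.0092, highest without C, with −0.03 over all) and Fabp4 in labelled reads scaled by labelled reads (0.14, from −0.04), none of them called; the cause was not tested. Single-gene calls were lost most often without A (78 values of 213) and without C (76), and 9 were lost without B. The replicate block took no call from a named gene and added 11, with those of Rgs2, Postn and Klf5 in labelled reads among them. Labelled counts limit the precision: the 6 libraries held at most 112814 labelled reads each. No gene passed for the labelled difference without A in edgeR at an adjusted p under 0.1, where 562 genes had an unadjusted p under 0.05 with all libraries.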
